A study of Mus musculus with 2 samples.

Results

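The cells described here are the 200 cells with the highest content of cell-cycle transcripts in 2 single-cell libraries of mouse liver. They were chosen by the summed UMIs (unique molecular identifiers, 1 for each RNA molecule counted) of Mki67, Top2a, Cenpf and Birc5 divided by the total UMIs of the cell. Ccnb1 also belongs to this group of markers and was not analysed here. The 200 cells were taken from 33537 cells with 2000 to 10000 genes, at most 100000 UMIs and a mitochondrial share of at most 5%. The label of both libraries is hepatocytes, but most of the 200 cells carried the markers of other liver cell types, so the group is called the cell-cycle-high cells and is not treated as a cell type.

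The mice were male, heterozygous p16-Tom animals on a C57BL/6 background, given CCl4 for 4 weeks and tamoxifen. They came from a cross of p16-CreERT2 with R26-CAG-LSL-tdTomato-WPRE mice, in which a tamoxifen-activated Cre recombinase under p16 control switches on tdTomato in any cell type, and cells transcribing p16 at the time of tamoxifen stay labelled. After fixation and dissociation, cells stained for nuclei (Hoechst) and mitochondria (MitoBrilliant 646) were sorted by reporter into p16low (Tom-) and p16high (Tom+) hepatocytes, with 1 library for each. Both groups received CCl4 and tamoxifen, no untreated liver is compared here, the ages and the number of mice per library are not given in the sources used here, and differences below compare these 2 libraries and not the conditions.

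Most hepatocytes of the adult liver rest outside the cell cycle and re-enter it after injury. DNA is copied in S phase, and the cell then passes through G2 and divides in mitosis (M phase). Liver macrophages (among them Kupffer cells), sinusoidal endothelial cells and stellate cells also divide in injured liver. Mki67 encodes the Ki-67 protein that coats mitotic chromosomes, Top2a a DNA topoisomerase that untangles sister chromatids, Cenpf a kinetochore protein, and Birc5 survivin, a subunit of the chromosomal passenger complex. All of them are expressed most strongly in G2 and mitosis, so the choice itself leans towards these phases.

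The promoters of the rule genes are shown because transcription of late cell-cycle genes is known to run through 2 short DNA elements, the CCAAT box and the cell cycle genes homology region (CHR). The 250 bases before the start site were read from RefSeq (GRCm38.p6) for all 4 genes. Capitals mark CCAAT and the CHR letters TTTGAA or TTTAAA on either strand, and no marked runs overlap each other.

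Mki67 (chr7:135716380-135716629, minus strand): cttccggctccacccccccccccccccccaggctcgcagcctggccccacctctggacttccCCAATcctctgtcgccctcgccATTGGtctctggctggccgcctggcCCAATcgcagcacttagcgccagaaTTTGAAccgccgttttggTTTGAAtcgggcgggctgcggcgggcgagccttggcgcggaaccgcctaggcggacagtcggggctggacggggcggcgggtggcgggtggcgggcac
Top2a (chr11:99024190-99024439, minus strand): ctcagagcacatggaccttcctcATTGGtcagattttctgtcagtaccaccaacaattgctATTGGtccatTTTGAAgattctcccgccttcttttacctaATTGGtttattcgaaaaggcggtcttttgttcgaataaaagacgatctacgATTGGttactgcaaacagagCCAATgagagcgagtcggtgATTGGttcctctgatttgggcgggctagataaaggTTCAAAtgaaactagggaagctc
Cenpf (chr1:189688087-189688336, minus strand): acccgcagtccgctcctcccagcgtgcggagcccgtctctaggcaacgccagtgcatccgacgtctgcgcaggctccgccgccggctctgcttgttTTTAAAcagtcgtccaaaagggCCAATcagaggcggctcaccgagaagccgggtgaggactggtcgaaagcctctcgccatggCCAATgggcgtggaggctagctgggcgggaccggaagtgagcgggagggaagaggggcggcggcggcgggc
Birc5 (chr11:117848987-117849236, plus strand): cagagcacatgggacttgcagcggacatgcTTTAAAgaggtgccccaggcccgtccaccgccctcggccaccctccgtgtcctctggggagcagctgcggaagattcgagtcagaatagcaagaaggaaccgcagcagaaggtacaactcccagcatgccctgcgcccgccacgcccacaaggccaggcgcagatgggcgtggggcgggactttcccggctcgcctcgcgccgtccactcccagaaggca

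Mki67 had 3 CCAAT and 2 CHR matches, Top2a 6 and 2, Cenpf 2 and 1, and Birc5 0 and 1. Of the 32851 promoters of this length in the table, 33.8% held CCAAT, 25.2% a CHR match and 8.78% both. None of the 4 windows held the E2F letters GCGGGAA or GCGCGAA, which 5% of promoters held. These matches are descriptions of the letters and not evidence of binding.

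The genes themselves lie in mm10 (GENCODE) at chr7:135689784-135716361 for Mki67 (ENSMUSG00000031004), chr11:98992943-99024189 for Top2a (ENSMUSG00000020914), chr1:189640606-189688086 for Cenpf (ENSMUSG00000026605) and chr11:117849251-117855743 for Birc5 (ENSMUSG00000017716). The following values describe the choice and test nothing. Mki67 had a UMI in 182 of the 200 cells, Top2a in 171, Birc5 in 135 and Cenpf in 99. All 4 genes were detected in 59 cells, 3 in 78, 2 in 54 and a single gene in 9. Among the other kept cells, shares with a UMI ran from 1.64% for Cenpf to 6.01% for Birc5, and free RNA and expression cannot be told apart at such shares. The 200 cells were 0.596% of the kept cells and held 21.7% of all rule gene UMIs in them.

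Values ranged from 4826 CPM (rule gene UMIs as CPM, the usual scaling of counts to a common total, where 345.6 CPM stands for 10 rule gene UMIs of 28933) down to 345.6 CPM at rank 200. The first cell outside was at 345.5 CPM, and rank 400 was at 182 CPM, so the limit cuts a continuous range. The value rested on few molecules in many cells: 47 cells had under 5 rule gene UMIs, 18 of them only 2, and 82 had 10 or more. The cell-cycle-high cells were also shallow, with a median of 8482 UMIs in the Tom- library and 10618 in the Tom+ library against 26838 and 36174 in the other cells. Of the 200 cells, 53% had a total more than 3-fold below their library's median, against 8.84% of the other cells. The share was 31.5% when at least 5 rule gene UMIs were required. It was 23.5% when cells were thinned to 5000 UMIs before ranking, which also left out all cells with fewer UMIs. In the plot of rule gene content against depth the highest values sit at the shallow end.

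**Figure D1:**
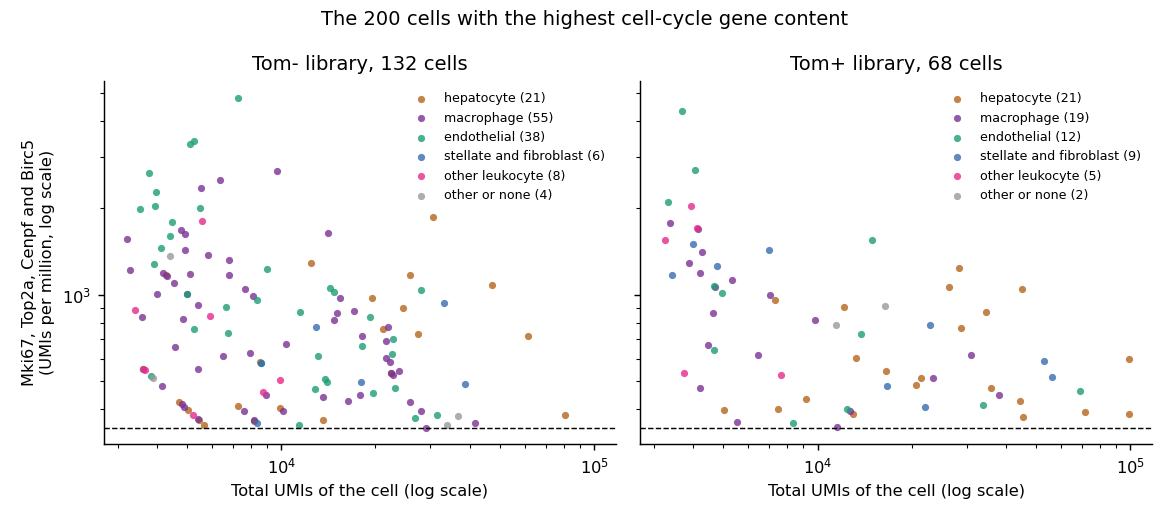
Summed UMIs of Mki67, Top2a, Cenpf and Birc5 as CPM of the cell (y axis, log scale) against total UMIs (x axis, log scale) for each of the 200 cells, by library and coloured by marker profile. The dashed line is the lowest value chosen, 345.6, and cells of hepatocyte profile (brown) reach to the deep end of both panels.

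There were 681279005 UMIs in 23220 barcodes of the Tom- library, and 715333889 UMIs in 16339 barcodes of the Tom+ library. After the filters 20159 and 13378 cells were kept. The 2 libraries shared 503 barcodes, which 10 of the 200 cells carried. Scrublet, a doublet caller, marked 0 cells in either library at its automatic threshold and so did not work here. Only 1 of the 200 cells lay among the 10% of its library with the highest doublet scores. Since the caller did not work and the 200 cells were shallow, this count says nothing about doublets among them. A further 124 cells reached the lowest chosen value but had failed a filter, 120 of them for having under 2000 genes.

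Of the 200 cells, 132 came from the Tom- library, or 0.655% of its kept cells (95% exact Clopper-Pearson interval 0.548 to 0.776). The Tom+ library gave 68, or 0.508% (0.395 to 0.644). The intervals of the 2 libraries overlap, which does not show that the shares are alike. All intervals in this text cover counting error only, and not variation between mice or between the cells of a sum.

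The lineage of the cells was examined first by clustering all kept cells. Only 6 of the 200, or 3%, fell into clusters that met the limits for hepatocytes. When cell-cycle genes were left out of clustering, an alternative added after seeing the data, 18% did (36 cells). Of these, 28 lay in a single cluster of 44 cells that was still led by Cdc20, Hmmr and Ube2c, so few joined the larger hepatocyte clusters. In the first clustering a cluster of 175 cells led by Ckap2, Hmmr and Cdc20, all mitotic genes, held 76 of the 200. It was not counted as hepatocyte because Pecam1, an endothelial adhesion molecule, was past its limit. Another 88 fell into a cluster of 739 shallow cells with a median of 7639 UMIs, led by Gpnmb, Lgals3 and Rgs1, genes of macrophages and other leukocytes. Cycling cells of different lineages therefore shared clusters, and lineage was read from each cell's own marker content instead, a step chosen after seeing the clusters.

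By marker content, 42 of the 200 cells (21.0%, interval 15.6 to 27.3) had a hepatocyte profile, meaning that none of 7 lists of markers for other lineages passed its limit and that the list of hepatocyte markers was above its own. A macrophage profile was found in 74 cells, an endothelial profile in 50, a stellate and fibroblast profile in 15 and a profile of other leukocytes in 13. The list furthest above its limit gave the name, but 66 of the 200 cells were past the limits of 2 or more lists. These were 39 macrophage, 10 endothelial, 10 stellate and fibroblast and 7 other leukocyte profiles. A single cell each had a cholangiocyte and an erythroid profile, and 4 cells passed no limit and stayed unassigned. Of the 200 cells, 66 lay within 1.5 times of the limit of another lineage and 84 within 1.5 times of the limit of the hepatocyte list. Of the 42 hepatocyte profiles, 5 lay near the limit of another lineage and 10 near that of the hepatocyte list, or 13 in all. In addition, 4 of the 42 were past a limit with fewer than 3 UMIs, which was not counted, and 1 of these was also among the 5. In total 15 of the 42 met at least 1 of these conditions. When cells were thinned to 5000 UMIs before ranking, with all shallower cells left out, the hepatocyte share was 34.5%.

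The profiles are ranges of marker content and not pure types, since hepatocyte RNA was present in all of them. The hepatocyte list (Alb and 11 other genes) had a median of 155745 CPM in the cell-cycle-high cells of hepatocyte profile, 121863 in those of endothelial profile, 88191 in those of macrophage profile and 70992 in those of other leukocyte profile. In 84 of the 200 cells a list of another lineage was past its limit while the hepatocyte list was also above its limit. In 70 cells the hepatocyte list was below it, and these had a median of 4858 UMIs, against 14512 in the 84 and 20836 in the 42 hepatocyte profiles. Among the other kept cells, 83.8% had hepatocyte markers alone, 14.3% had both and 1.27% had another list with a low hepatocyte list. Free RNA, doublets and cells of mixed content cannot be told apart in these values.

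The makeup of the cell-cycle-high cells was also counted by library. Hepatocyte profiles were 21 of 132 cells in the Tom- library (15.9%, 10.1 to 23.3) and 21 of 68 in the Tom+ library (30.9%, 20.2 to 43.3). Macrophage profiles were 41.7% (33.2 to 50.6) and 27.9% (17.7 to 40.2), and endothelial profiles 28.8% (21.2 to 37.3) and 17.7% (9.47 to 28.8). The intervals of the libraries overlap for each of these profiles. Such overlap does not show that the shares are alike, and their difference was not tested.

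Set against all kept cells of the same profile, cell-cycle-high cells were rare among hepatocytes. They were 0.126% of hepatocyte-profile cells in the Tom- library (21 of 16622, 0.0782 to 0.193) and 0.185% in the Tom+ library (21 of 11357, 0.115 to 0.283). Among macrophage-profile cells they were 9.75% (55 of 564, 7.43 to 12.5) and 6.31% (19 of 301, 3.84 to 9.68). Among endothelial-profile cells they were 1.98% (38 of 1919, 1.41 to 2.71) and 1.11% (12 of 1079, 0.576 to 1.94). In both libraries the interval of the hepatocyte profile lay below those of the macrophage and endothelial profiles. The macrophage-profile cells not chosen had a median of 15486 UMIs and the endothelial-profile cells 32419, against 31172 for hepatocyte profiles. The part of depth in these differences was not tested.

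**Figure D2:**
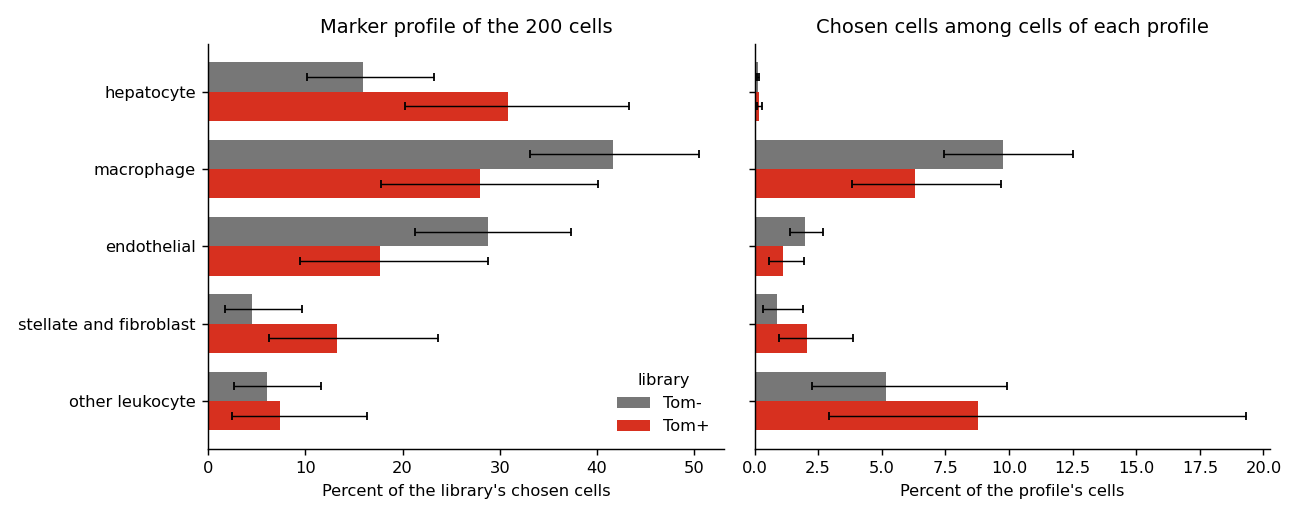
Left, percent of each library's cell-cycle-high cells (132 Tom-, 68 Tom+) in the 5 commonest marker profiles. Right, percent of all kept cells of a profile that were cell-cycle-high. Bars are shares and lines their 95% Clopper-Pearson intervals, and macrophage profiles lead the left panel in the Tom- library while hepatocyte bars are barely visible on the right.

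Phase was examined with 2 lists that left out the rule genes: 43 measured S phase genes, such as Pcna, the sliding clamp of DNA polymerase, and 49 G2/M genes, such as Cdk1, the kinase that drives entry into mitosis. Each cell's summed level was divided by the level of all other kept cells of its library. The median cell-cycle-high cell had the G2/M list at 9.59-fold and the S list at 4.87-fold. The G2/M list was at 3-fold or more in 184 of the 200 cells, and in 0.651% of the other cells. The S list reached 3-fold in 132 of the 200 cells and in 1.37% of the others. In 68.5% of the 200 cells (61.6 to 74.9) the G2/M fold was the larger. The choice itself leans towards G2 and mitosis, so this share is no independent measure of phase. Both lists reached 3-fold in 128 cells, the G2/M list alone in 56, the S list alone in 4 and neither in 12.

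The profiles differed most in the S list. It reached 3-fold in 13 of 42 hepatocyte profiles, 62 of 74 macrophage profiles, 36 of 50 endothelial profiles and 11 of 13 other leukocyte profiles. The cells that were not chosen also differed by profile, with the S list at 3-fold in 0.315%, 14.4%, 4.75% and 16.6% of them. In CPM, its median was 733 in cell-cycle-high cells of hepatocyte profile, 2162 in those of macrophage profile, 1631 in those of endothelial profile and 4635 in those of other leukocyte profile. The G2/M medians were closer together, at 4895, 4626, 6566 and 6902 CPM. Since the cells differed in depth, each was also thinned to 3000 UMIs, which all 200 cells had. The thinned S medians were then 2, 6, 5 and 10 UMIs, against 1 in the other cells, and the thinned G2/M medians 15.5, 15, 21 and 22 UMIs. The order of the S list was the same with and without thinning, with hepatocyte profiles lowest.

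**Figure D3:**
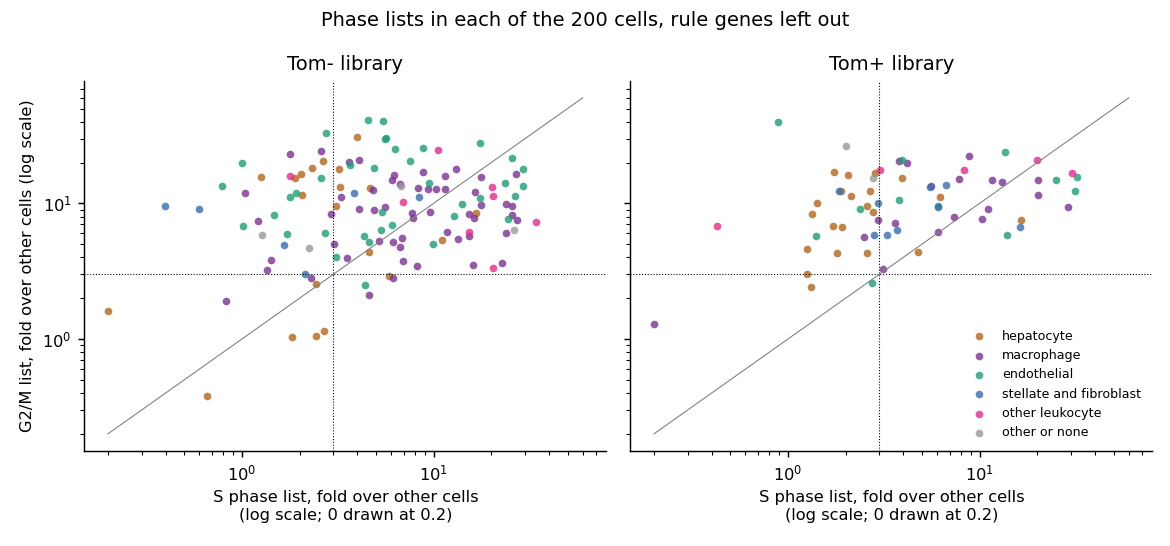
Fold of the S phase list (x axis) and the G2/M list (y axis) over all other kept cells of the library, both on log scales, for each of the 200 cells by library and profile. Dotted lines mark 3-fold and the grey line equal folds, and hepatocyte profiles (brown) lie mostly above the grey line and left of the vertical dotted line.

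Not every hepatocyte profile was high in other cell-cycle genes. In 34 of the 42 the G2/M list was at 3-fold or more, with a median of 18 rule gene UMIs in these cells. The other 8, of which 7 were Tom-, stayed under 3-fold, had 2 to 5 rule gene UMIs and totals of 4725 to 13597 UMIs. By library, the median G2/M level of hepatocyte profiles was 5016 CPM in the 21 Tom- cells and 4774 in the 21 Tom+ cells. Other hepatocyte-profile cells of like depth had medians of 539 (420 cells) and 546 CPM (397 cells), and 2 of the 420 and 0 of the 397 reached 3-fold. The S list was at medians of 804 CPM (Tom-) and 628 CPM (Tom+) against 288 and 303 CPM in the cells of like depth.

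For single genes, the UMIs of the 21 hepatocyte-profile cells of each library were summed (446184 Tom- and 683611 Tom+ UMIs) and compared with the sum of the other hepatocyte-profile cells of that library. A gene counted as higher or lower when it was at least 2-fold apart in the same direction in both libraries, as log2 of the CPM ratio with 0.5 UMIs added. Of 8197 genes measured well enough (10 CPM in either sum and 20 UMIs over both, in each library), leaving out the rule genes, 450 were higher (5.49%) and 21 were lower (0.256%). A gene low in other hepatocytes could enter only by being above them in the cell-cycle-high cells. Of the 7604 genes that reached 10 CPM in the other hepatocytes of both libraries, 142 were higher (1.87%) and 21 lower (0.276%). The counts of cell-cycle genes given below therefore come with the number of genes that passed in this way, and the other genes in them are no support for a difference. The interval of the ratio also lay beyond 0 in both libraries for 407 of the 450 and 16 of the 21. The median log2 ratio of all these genes was 0.20 in the Tom- and 0.18 in the Tom+ library. No test was possible with 1 library per group, and the cells of a library are not replicates. When cells were thinned to 5000 UMIs before ranking, with all shallower cells left out, 266 genes were higher and 5 lower.

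Genes of mitosis differed most in summed level. The choice itself leans towards G2 and mitosis, so this order is no independent result. The 14 spindle motor and assembly genes together were at 1553 CPM in the Tom- cells against 11.6 in the other hepatocytes (log2 ratio 7.06, interval 6.95 to 7.18). In the Tom+ cells the sum was 1081 against 9.85 CPM (6.78, 6.66 to 6.89). None of the 14 genes reached 10 CPM in the other hepatocytes of both libraries, so their number is no result. Hmmr, a spindle-binding hyaluronan receptor, was at 269 and 176 CPM in the Tom- and Tom+ cells against 0.658 and 0.564 in other hepatocytes. Tpx2, which activates Aurora A on the spindle, was at 262 and 138 against 0.95 and 0.654 CPM. The other hepatocytes of both libraries had almost none of either transcript.

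The kinetochore and checkpoint genes had log2 ratios of the sum of 3.03 (Tom-) and 2.34 (Tom+), and of 15 measured well enough only 2 passed in other hepatocytes, both of them higher. Hjurp, the chaperone of the centromeric histone, differed least among the leading genes. It was already at 147 and 160 CPM in other hepatocytes and reached 569 and 398 CPM. The whole list was at 184 and 205 CPM in other hepatocytes, so Hjurp alone held most of that sum and lowers the ratio of the sum. Over the 15 genes the median log2 ratio was 6.84 and 6.38, but most of them passed only through the cell-cycle-high cells. Spc24 and Spc25, subunits of the NDC80 complex that holds microtubules, had log2 ratios of 3.35 and 2.66, and of 3.83 and 3.54. The summed cytokinesis genes had log2 ratios of 6.68 and 6.29, and of the 12 listed 10 were measured well enough, none of them through the other hepatocytes. Ect2, the exchange factor that starts furrow formation, was at 201.7 and 143 CPM, and Prc1, which bundles the central spindle, at 208 and 90.7 CPM. Of 7 condensin genes measured well enough, 3 passed in other hepatocytes and were higher. Smc4 led this list at 208 and 111 CPM against 10.8 and 10.3. Beside the kinetochore and condensin counts, 1.87% of all genes that passed in other hepatocytes were higher.

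Of 14 mitotic kinases and genes of the anaphase-promoting complex, 12 were higher (5.49% of all genes were). Only 3 passed in other hepatocytes, with 1 of these higher (1.87% of all such genes were). Cdk1 reached 383 CPM in Tom- and 205 CPM in Tom+ cells, against 4.17 and 3.55 in other hepatocytes. Nek2, a centrosome kinase, had log2 ratios of 5.86 and 5.77. Ube2c and Cdc20, which serve the anaphase-promoting complex, had ratios of 8.10 and 7.88, and of 8.5 and 8.17.

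Of 5 cyclins measured well enough 3 were higher (5.49% of all genes were), and of the 3 that passed in other hepatocytes 1 was (1.87%). Ccnb2, a mitotic cyclin, was at 103 CPM (Tom-) and 96.6 CPM (Tom+) against 3.18 and 2.89 in other hepatocytes, and Ccna2, the cyclin of S phase and G2, was at 87.4 and 76.1 against 1.59 and 1.18. Ccnf had log2 ratios of 2.84 and 1.95. Ccnd1, the cyclin of the G1 phase before DNA copying, was at 26.9 and 43.9 CPM against 35.8 and 46.9, with intervals of the ratio across 0 in both libraries.

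Genes of DNA copying were higher by less, an order towards which the choice itself leans. Beside the counts that follow, 5.49% of all genes were higher, and 1.87% of those that passed in other hepatocytes. Of 9 S phase genes that passed in other hepatocytes 6 were higher (25 of all 28 measured well enough), and the summed level of the list was 1136 CPM in the Tom- cells against 289 (log2 ratio 1.98, 1.85 to 2.10) and 901 in the Tom+ cells against 297 (1.60, 1.49 to 1.72). The G2/M list had ratios of 3.65 and 3.18, with 10 of 12 genes that passed in other hepatocytes higher (45 of all 47). Rrm2, the regulated subunit of ribonucleotide reductase, led the S list at 152 and 101 CPM against 11.6 and 10.0. Pcna was at 56.0 and 73.1 CPM against 23.8 and 26.0. Of the replication origin and fork genes that passed in other hepatocytes 4 of 5 were higher (13 of all 14). The remaining one, Mcm10, a replication initiation factor, was at 65.0 and 59.98 CPM against 76.2 and 72.5 in other hepatocytes, with both intervals across 0. Of 7 genes of nucleotide supply 3 were higher, none of them among the 4 that passed in other hepatocytes. Among the 3 was Rrm1 with ratios of 3.23 and 2.71, while Tk1 had ratios of 0.55 and 0.42.

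Of 5 cell-cycle transcription factors measured well enough, 3 were higher and none of these passed in other hepatocytes: Foxm1, which drives late cell-cycle genes, with log2 ratios of 6.19 and 6.49, Lin54, the DNA-binding subunit of the DREAM complex, with 2.74 and 1.93, and E2f8, a repressor of the E2F family, with 2.11 and 1.23. Tfdp1, a partner of E2F factors, had ratios of 1.17 and 0.62. Of 8 inhibitors and pocket proteins 4 were higher (2 of the 6 that passed in other hepatocytes). Beside this list and the transcription factors, 5.49% of all genes were higher, and 1.87% of those that passed in other hepatocytes. Among the 4 were Cdkn2d and Rbl1, which were named after their values were seen. The other two were Cdkn2c and Cdkn1b, inhibitors of cyclin-dependent kinases, the first at 249 and 184 CPM against 54.0 and 58.6, and the second at 117 and 89.2 against 34.5 and 39.8. Cdkn1a, the p21 inhibitor induced by p53, was at 307 CPM in the Tom- cells (137 UMIs) against 104 in other hepatocytes, a log2 ratio of 1.56 (1.31 to 1.80). In the Tom+ cells it was at 130 CPM (89 UMIs) against 86.3, a ratio of 0.59 (0.28 to 0.89). It was thus above other hepatocytes in both libraries but past 2-fold only in the Tom- library.

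The p53 targets differed little as a sum, with log2 ratios of 0.22 and 0.23. By gene, 1 of 12 was higher (0 of the 11 that passed in other hepatocytes). Over all genes 5.49% were higher, and 1.87% of those that passed in other hepatocytes, so these counts are near the shares over all genes. Gdf15, a stress-induced hormone, led the list at 668 and 727 CPM against 616 and 635. The one called gene was Phlda3, an inhibitor of AKT, with ratios of 2.10 and 1.66, named here after its value was seen. None of 10 growth factor receptor and Hippo target genes passed 2-fold in both libraries, a count near the shares over all genes (5.49% higher and 0.256% lower). Their sums had ratios of -0.07 (-0.23 to 0.09) and -0.08 (-0.22 to 0.05). Egfr, the receptor for epidermal growth factor, was at 211 and 158 CPM against 246 and 200. The fetal and progenitor list, with Afp, was too low for any gene to be measured, with 4 and 9 UMIs in the 2 sums.

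**Figure D4:**
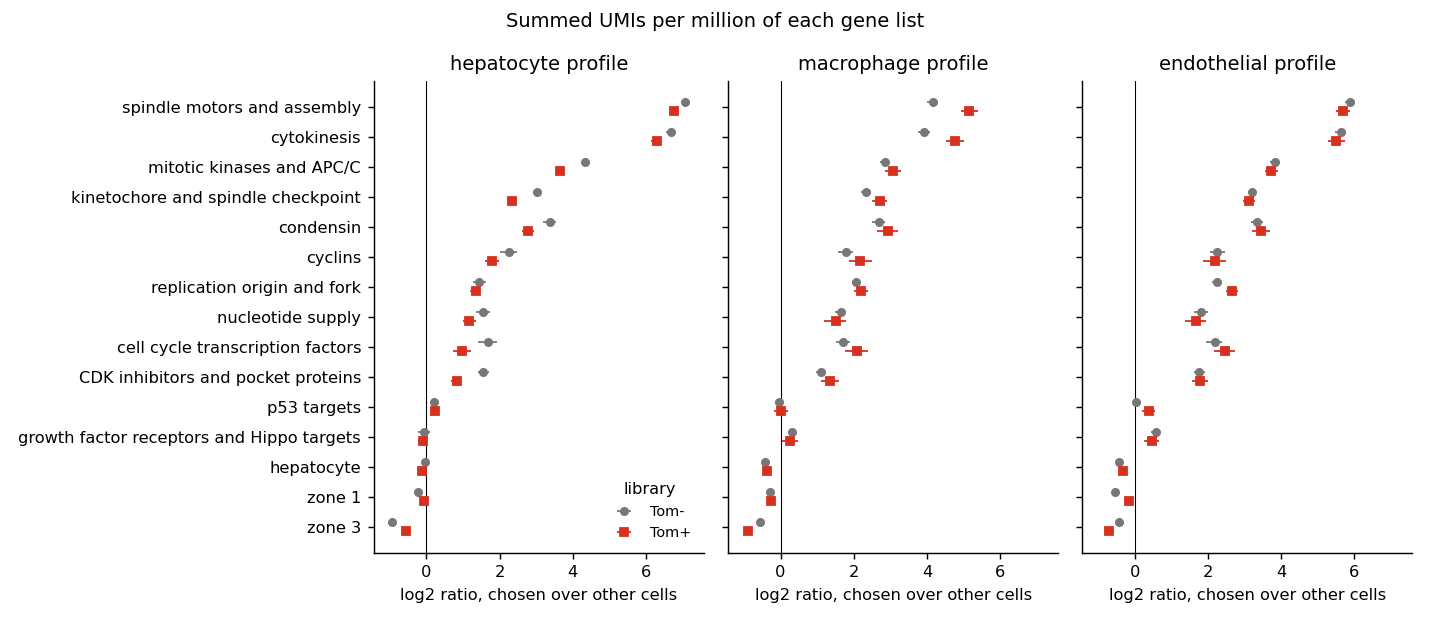
log2 ratio of summed CPM between cell-cycle-high cells and the other cells of the same marker profile, for 15 gene lists (rows), 3 profiles (panels) and both libraries (grey circles Tom-, red squares Tom+). Lines are 95% exact counting intervals, rule genes are left out, and the mitotic lists sit furthest right in all 3 panels, reaching 7.06 in the hepatocyte panel.

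Outside the lists, the 10 genes with the largest ratio were Pif1, Depdc1a, Troap, Sapcd2, Prr11, Ska1, Knstrn, Parpbp, Esco2 and Iqgap3. None of them reached 10 CPM in the other hepatocytes of either library. They entered only through the cell-cycle-high cells, so their ranking describes the choice and is no support for a difference. Knstrn, a spindle and kinetochore protein, had the highest level of them, 199.5 CPM (89 UMIs) in the Tom- cells and 203.3 CPM (139 UMIs) in the Tom+ cells against 1.02 and 0.876 in other hepatocytes. It was found in 26 of the 42 cells. Pif1, a DNA helicase, ranked first, with 67.2 and 24.9 CPM against 0.0993 and 0.0624. Esco2, which acetylates cohesin after DNA copying, was at 67.2 and 70.2 CPM. Ska1, a kinetochore protein, rested on the fewest UMIs, 10 and 8, and was found in 12 cells.

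The 10 genes with the smallest ratio were Ces2c, Serpina7, Cxcl9, Jagn1, Mfsd4b1, Rnf152, Crybg2, Lipg, Cyp2c69 and Slc22a7. Serpina7, which encodes thyroxine-binding globulin, was the best measured, at 35.9 CPM (16 UMIs) and 83.4 CPM (57 UMIs) against 136 and 254 in other hepatocytes. Its log2 ratios were -1.92 (-2.72 to -1.22) and -1.61 (-2.01 to -1.24). The others rested on 1 to 11 UMIs in each library, with 1 and 6 for Ces2c, 1 and 5 for Cxcl9, and 2 and 1 for Crybg2. In the Tom- library the interval included no change for Ces2c (-7.65 to 0.14), Rnf152 (-3.81 to 0.02) and Crybg2 (-4.65 to 0.25).

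Cells of hepatocyte profile kept hepatocyte transcripts while carrying these mitotic genes. Alb, the albumin gene, was at 120966 CPM in the Tom- cells against 119399 in other hepatocytes and at 106875 against 110080 in the Tom+ cells. None of the 12 hepatocyte genes passed 2-fold in either direction in both libraries, and the sums had ratios of -0.05 and -0.11. Of the markers of other cell types measured well enough, none of 5 endothelial, 5 macrophage or 3 stellate and fibroblast genes passed 2-fold in both libraries. No gene of the other leukocyte list was measured well enough. Over all genes 5.49% were higher and 0.256% lower, so the counts of these lists and of the hepatocyte list are near the shares over all genes. The summed other leukocyte markers were at 20.2 CPM (9 UMIs) in the Tom- cells against 7.77 (ratio 1.38, 0.25 to 2.30) and at 5.85 CPM (4 UMIs) against 5.62 in the Tom+ cells (0.06, -1.82 to 1.42). The summed macrophage markers were at 578 CPM in the Tom- cells against 377 (ratio 0.62, 0.43 to 0.79) and at 275 against 273 in the Tom+ cells. By cell, the Tom- difference was larger, with a median of 654 CPM against 225. In the Tom+ library the median cell was at 114 against 133 CPM. The endothelial sums were at 101 and 62.9 CPM against 135 and 91.0. The profile itself was set by these lists, so they are no independent check.

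The position along the liver lobule was read from zone lists: 12 zone 1 genes (the portal end), 5 zone 2 genes (the middle) and 14 zone 3 genes (around the central vein). In the Tom- library the zone 3 list ranged from 777 to 4406 CPM over the 21 cell-cycle-high hepatocytes, with a median of 2323 against 3004 in the other hepatocytes. In the Tom+ library it ranged from 568 to 8918 CPM, with a median of 3767 against 5582. Below the median of the other hepatocytes were 12 of 21 Tom- and 18 of 21 Tom+ cells. Over both libraries this was 71.4% of hepatocyte profiles, but 33.3% (2 cells) of the 6 cell-cycle-high cells in hepatocyte clusters. Of hepatocyte profiles it was 58.3% when 400 cells were chosen and 63.8% after thinning to 5000 UMIs before ranking. Against hepatocytes of like depth, 15 of 21 Tom- and 18 of 21 Tom+ cells were below the median. The zone 1 list had a median of 14185 CPM against 16715 in the Tom- library and of 10035 against 9930 in the Tom+ library, with 14 and 10 of 21 cells below the median of the others. No cell of either library was above the 90th percentile of the other hepatocytes in the zone 1 or in the zone 3 list. Below the 10th percentile were 4 Tom- cells and 1 Tom+ cell in the zone 3 list, and 0 and 1 in the zone 1 list. In the zone 2 list 4 Tom- cells and 1 Tom+ cell were above the 90th percentile, and 5 and 3 were below the 10th.

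**Figure D5:**
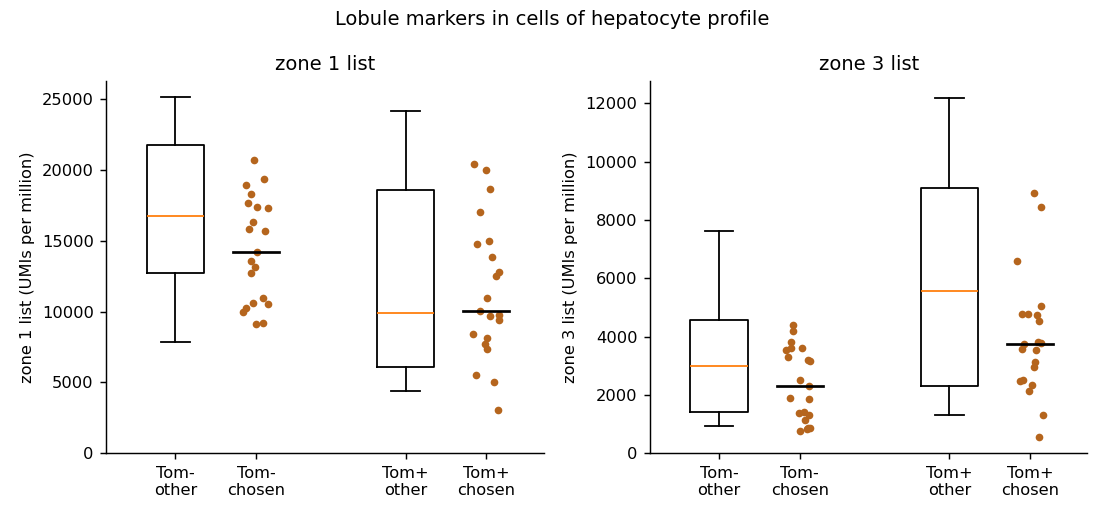
Zone 1 list (left) and zone 3 list (right) in CPM for hepatocyte-profile cells of each library. Boxes give the quartiles and median and whiskers the 10th and 90th percentiles of the other hepatocytes, points are the 21 cell-cycle-high cells of each library and black bars their medians, and no point passes an upper whisker.

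By gene, 3 of 11 zone 3 markers measured well enough were lower in both libraries (0.256% of all genes were) and none was higher (5.49%). Cyp2e1, the cytochrome P450 that activates CCl4, was at 480 and 1014 CPM against 1204 and 2119 in other hepatocytes. Its log2 ratios were -1.33 (-1.53 to -1.13) and -1.06 (-1.17 to -0.96). These ratios are of summed UMIs, in which deep cells weigh most. The median cell was at 699 CPM against 889 in the Tom- library, a smaller difference, and at 825 against 2094 in the Tom+ library. The other two, named after their values were seen, were Glul, the glutamine synthetase of the cells touching the central vein, and Slc1a2, a glutamate transporter. Glul was at 8.96 CPM (4 UMIs) and 38.03 CPM (26 UMIs) against 37.3 and 119, and Slc1a2 had ratios of -1.71 and -2.56. The libraries were unlike in the size of the ratios: over the 11 genes the median was -1.25 in the Tom- and -0.35 in the Tom+ library, and 8 and 3 of the genes were at least 2-fold lower. Rgn, Cyp27a1 and Cyp1a2, named for their high level, had ratios from -0.72 to -0.14, the smallest of the list in the Tom- library. Of the zone 1 markers none of 12 passed 2-fold in both libraries, a count near the shares over all genes. In the Tom+ library alone Cyp2f2, a cytochrome P450, was lower at 42.4 against 123 CPM (-1.54, -2.11 to -1.01) and Hsd17b13, a lipid droplet enzyme, higher at 796 against 382 (1.06, 0.94 to 1.18), with Tom- ratios of -0.12 and 0.62. Both were named after their values were seen. Pck1, a gluconeogenic enzyme, had ratios of -0.44 and -0.38, and Ass1, of the urea cycle, -0.25 and 0.00. A lower zone 3 sum was not particular to hepatocyte profiles, where its log2 ratios were -0.93 (Tom-) and -0.56 (Tom+). Against other cells of their own profile, the ratios were -0.55 and -0.88 in macrophage profiles and -0.44 and -0.71 in endothelial profiles.

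Of the zone 2 markers, Hamp, which encodes the iron hormone hepcidin, was higher at 318 CPM (142 UMIs) and 235 CPM (161 UMIs) against 120 and 106, with ratios of 1.41 and 1.15. In the Tom- library this rests on some cells: 10 of 21 had a Hamp UMI, against 76.6% of other hepatocytes, and the median cell was at 0 against 68.3 CPM. In the Tom+ library 18 of 21 had one, against 74.2%, and the median cell was at 165 against 47.9 CPM. Igfbp2, another zone 2 gene, had ratios of -0.06 and -0.62.

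The reporter followed the sort in these cells as well. tdTomato was at 42.6 CPM (19 UMIs) in the Tom- hepatocyte profiles and at 547 CPM (374 UMIs) in the Tom+ ones, a log2 ratio of Tom+ over Tom- of 3.68 (3.02 to 4.43), against 3.41 in other hepatocytes. A UMI was found in 12 of 21 Tom- and all 21 Tom+ cells. In both libraries the level was below that of other hepatocytes, 73.4 CPM (ratio -0.79, -1.52 to -0.14) and 779 CPM (-0.51, -0.66 to -0.36). Probe background, free RNA and low expression cannot be told apart in the Tom- cells. Cdkn2a, the gene that encodes p16 and also the Arf protein, which a count per gene cannot tell apart, had 2 UMIs in the Tom- cells and 0 in the Tom+ cells, where 0 UMIs allow up to 4.39 CPM by a floor of 3 counts and 5.40 CPM by the exact interval, and other hepatocytes were at 0.253 and 0.220 CPM. The log2 ratio in the Tom- cells was 4.15 (1.09 to 6.03) and rests on these 2 UMIs, and no ratio is given for the Tom+ cells. In endothelial profiles Cdkn2a had 8 UMIs in 6 of 38 Tom- cells (18.6 CPM, 8.04 to 36.7, against 0.829 in other cells of that profile) and 2 UMIs in 1 of 12 Tom+ cells (11.3 CPM, 1.36 to 40.7, against 1.25). In macrophage profiles Cdkn2a had 3 UMIs in the Tom- cells (4.75 CPM against 3.12, log2 ratio 0.61, -1.75 to 2.29) and 1 UMI in the Tom+ cells (5.30 against 3.07, 0.79, -4.57 to 3.40), with both intervals across 0. In macrophage profiles tdTomato was at 87.1 and 446 CPM, a Tom+ over Tom- ratio of 2.36 (1.85 to 2.87) against 3.12 in other macrophage profiles. In endothelial profiles it was at 93.1 and 896 CPM, a ratio of 3.27 against 3.22.

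The cell-cycle-high cells of macrophage and endothelial profile were compared with the other cells of their profile in the same way. Against other macrophage-profile cells, 1076 of 9147 genes were higher (11.8%) and 41 lower (0.448%), with 632 of the 8342 that passed in the other cells higher (7.58%). Against other endothelial-profile cells, 1542 of 9043 were higher (17.1%) and 22 lower (0.243%), with 748 of the 8026 that passed in the other cells higher (9.32%). Purity moved with these counts: the hepatocyte list was lower in the chosen cells, with log2 ratios of -0.43 and -0.38 in macrophage profiles and -0.42 and -0.33 in endothelial profiles. The list that defined the profile was higher, by 1.08 in both libraries for macrophage and by 1.67 and 1.43 for endothelial markers. In endothelial profiles the macrophage list was at 2858 CPM in the Tom- cells against 848 (log2 ratio 1.75, 1.67 to 1.84) and at 462 against 654 in the Tom+ cells (-0.50, -0.83 to -0.19), with none of 8 genes past 2-fold in both libraries. The list of other leukocytes was higher in macrophage profiles in both libraries (0.92, 0.65 to 1.18, and 1.71, 1.23 to 2.15). In endothelial profiles it was at 1.98 (1.38 to 2.52) in the Tom- cells and at -1.19 (-6.50 to 1.30, 1 UMI) in the Tom+ cells. The part of these lists in the counts was not tested.

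Among genes that passed in the other cells of the profile, 10 of 13 S phase and 12 of 13 G2/M genes were higher in macrophage profiles. In endothelial profiles these were 10 of 12 and all 12. Beside these counts, 7.58% of all genes that passed in this way were higher in macrophage and 9.32% in endothelial profiles. The log2 ratios of the S list were 2.18 and 2.34 in macrophage profiles and 2.49 and 2.71 in endothelial profiles. Those of the G2/M list were 2.55 and 2.93, and 3.43 and 3.40. Of the replication origin and fork genes that passed in this way, 7 of 7 were higher in macrophage and 5 of 6 in endothelial profiles. Cdk1 was at 130 (Tom-) and 191 CPM (Tom+) in macrophage profiles against 13.1 and 7.48 in other cells of that profile, and at 279 and 372 CPM in endothelial profiles against 7.75 and 7.52. Rrm2 was at 120 and 143 CPM in macrophage profiles and at 130 and 124 CPM in endothelial profiles, close to its 152 and 101 CPM in hepatocyte profiles. Cdkn1a did not pass 2-fold in both libraries in either profile, with ratios of 0.40 and -0.35 in macrophage profiles and 0.91 and 1.16 in endothelial profiles.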

How the data were processed

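Fixed cells were profiled with 10x Genomics Flex, in which probe pairs are hybridised to RNA, and custom probes measured tdTomato. The authors counted with Cell Ranger 7.2.0 on mm10, per the labels, and the deposited matrices hold raw UMI counts for 19073 features. Probe efficiency differs between genes, so ratios were taken within genes. Gene lists were summed without the rule genes. Both libraries (1396612894 UMIs in all) were filtered per cell by the limits of the study's methods, but its later removal of non-hepatocyte clusters was not applied, since 6 of the 200 cells fell into hepatocyte clusters here. Ccnb1, Hmgb2 and H19 were not analysed here, and Ccn1 and Ccn2 were matched through their older symbols Cyr61 and Ctgf. The members and gene lists were chosen with earlier results of these data known.

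All kept cells were clustered together (2000 variable genes, 30 components, 20 neighbours, Leiden resolution 0.8; Python 3.11.15, scanpy 1.11.5, leidenalg 0.10.2). Clusters with few genes (under 0.75 times the median) or with a non-hepatocyte marker (Pecam1, Dcn, Ptprc) 2.5 times over the median of clusters were not hepatocyte clusters. This left 6 members, so a marker content profile, added after seeing the data, replaced it: a lineage list passed above the 99.9 percentile of cells in hepatocyte clusters of the library with at least 3 UMIs, the list furthest above its limit gave the name, and the hepatocyte list had to reach the first percentile.

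Sums over the cells of a library were scaled to CPM. Ratios have exact conditional intervals and shares exact Clopper-Pearson intervals, at 95%. Genes needed 10 CPM in either sum and 20 UMIs over both, in each library. Calls used 2-fold with a pseudocount of 0.5. In each list the 2 to 4 genes highest in hepatocyte members were named, with the 10 largest and 10 smallest ratios outside the lists. Some genes that this rule names are not reported here. The cells of like depth were the 20 others nearest in UMIs to each member. With 1 library per group no test was made. Gene positions came from GENCODE vM21 and promoters from RefSeq. Scrublet marked 0 cells, so no doublets were removed. The ratio script was tested on simulated data. Alternatives covered member number, rule genes, filters, depth, clustering, scaling and profile limits.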

Additional observations from a re-analysis of the deposited data

How the results depend on the processing

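No paired analysis was possible because there is 1 library a group. Choices marked as added were made after seeing the data. Of the recomputed values, 131 stayed close to the reported ones and 38 moved. The share of cells of higher G2/M than S fold was 61.3% with 400 cells. The share of shallow cells was 67.0% with 100 cells, 44.8% with 400, 31.5% with at least 5 rule gene UMIs, 67.0% with at least 1000 genes and 23.5% after thinning to 5000 UMIs. Thinning also left out all cells with under 5000 UMIs. The share in hepatocyte clusters was 0% with 100 cells, 1% with at least 5 rule gene UMIs, without Mki67 or with at least 1000 genes, and 18% when cell-cycle genes were left out of clustering (added). The share of hepatocyte profiles was 15.5% with at least 1000 genes and 34.5% after thinning.

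The 450 higher genes became 911 for the 6 cells of hepatocyte clusters, 817 with 100 cells, 286 with 400, 266 after thinning, 119 at 50 CPM, 2385 with no minimum and 765 by the exact interval alone (added). The 21 lower genes became 49, 52, 1, 5, 3, 64 and 245 under these settings. They became 7 with at least 5 rule gene UMIs, 32 without Cenpf, 44 with at least 1000 genes, 32 with the mean of per-cell CPM, 40 with median-of-ratios scaling, 11 when cell-cycle genes were left out of clustering (added) and 13 with limits 1.5 times higher (added). Below the median of other hepatocytes in the zone 1 list were 57.1% of hepatocyte profiles, and 83.3% of the cells of hepatocyte clusters. In the zone 3 list 71.4% were below it, but 33.3% in hepatocyte clusters, where only 6 cells remained, 87.5% with 100 cells and 87.1% with at least 1000 genes. The reporter ratio of cells in hepatocyte clusters had no value, since the Tom- cells had 0 UMIs, and the alternative without Ccnb1 was not run, since Ccnb1 was not analysed here. The causes were not tested.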

Other observations

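Cell-cycle-high cells of stellate and fibroblast profile were 6 of 689 cells of that profile in the Tom- library (0.871%, 0.320 to 1.89) and 9 of 436 in the Tom+ library (2.06%, 0.948 to 3.88). Their G2/M list was at 3-fold or more in 14 of 15 cells and their S list in 8 of 15. Cells of other leukocyte profile were 8 of 155 (5.16%, 2.25 to 9.92) and 5 of 57 (8.77%, 2.91 to 19.3), with both lists at 3-fold or more in 11 of 13. Mesothelial profiles held no cell-cycle-high cell, 0 of 66, with an upper interval bound of 5.44%. Ccne2, the cyclin of entry into S phase, had 4 and 7 UMIs in hepatocyte profiles (8.97 and 10.2 CPM) and 23 and 7 in macrophage profiles (36.4 and 37.1 CPM).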
